A study of Mus musculus with 4 samples.

Results

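Blocking miR-9-5p in unstimulated MLg mouse lung fibroblasts was followed by higher RNA levels of several glutathione S-transferases, NRF2-type redox enzymes and proliferins. Of 78 small nucleolar and Cajal body RNAs 33 were also higher (42.3%, beside 2.03% of all genes measured). However, 13 of these had under 30 reads over both libraries. Lower levels were seen for the signalling genes Bmp4, Sfrp1 and Fst and the integrins Itga11 and Itga8. They were also seen for Amotl2, Crim1 and Tead1 of the Hippo pathway list. The comparison set 1 library of cells transfected with an antagomiR that blocks miR-9-5p (called miR-9-LOF, for loss-of-function) against 1 library of cells transfected with a control antagomiR (Ctr), both without TGFB1, out of 4 libraries of total RNA in all. It covered 9291 of the 12767 gene symbols in the expression table, those with a mean of 1 or more RPKM (reads per kilobase of transcript, scaled to the library total) over both libraries. With 1 library per condition there was no replicate and no test was made, so every difference below is a difference between these 2 libraries.

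MLg is an established fibroblast line from mouse lung, labelled wild type. Both groups received an antagomiR, a chemically modified antisense oligonucleotide that binds a mature microRNA, with a lipid transfection reagent, so the transfection itself was common to both. The submitters' protocol gives an antagomiR concentration of 60 nM and harvest after 24 h, whereas their design text gives 10 nM and 48 h, and which of them applies to these libraries was not settled. The other 2 libraries came from cells that also received TGFB1 at 5 ng/ml for 4 h, and they served here as a second pair with the same antagomiR contrast and no library in common with the first. Nothing in the labels says that the libraries came from separate cultures. Of 15 fibroblast markers, 10 were measured, among them Col1a2 at 289 RPKM in Ctr and 199.6 RPKM after miR-9-LOF, and Vim at 614 and 586 RPKM. The summed level of the epithelial, endothelial and leukocyte markers stayed at 7.35 RPKM or lower per list in all 4 libraries. That of the mesothelial and pericyte markers, of which 3 of 11 were measured, was higher, at 55.2 RPKM in Ctr and 57.4 RPKM after miR-9-LOF without TGFB1 and 62.3 and 49.9 RPKM with it.

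MicroRNAs guide Argonaute proteins to partly complementary sites, mostly in the 3' untranslated regions of mRNAs, where pairing of the seed lowers the stability and translation of the message. miR-9 is best known from the nervous system, where it acts on regulators of neural progenitors, and it has also been studied in the cell nucleus of lung fibroblasts. The mature RNA is encoded at 3 loci, chr3:88215613-88215635, chr7:79505279-79505301 and chr13:83738821-83738843 (GRCm38.p6, RefSeq, plus strand), which give the same sequence. It is shown because its seed, bases 2 to 8 in capitals, is the sequence that the antagomiR covers together with the rest of the strand.
mmu-miR-9-5p: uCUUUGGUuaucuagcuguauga
Mature microRNAs were not measured by these libraries, so the loss of miR-9 itself was not checked here. The host transcript of one miR-9 locus, C130071C03Rik, had 19 reads in Ctr and 9 reads after miR-9-LOF (0.197 and 0.174 RPKM), under the level filter.

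The libraries differed in depth and in the share of a few abundant RNAs, which sets the scale of every change. The library totals behind the RPKM values were 27416665 reads in Ctr and 14719887 reads after miR-9-LOF. Rn45s, the precursor of ribosomal RNA, took 17.9% of the counts in Ctr and 27.4% after miR-9-LOF, Mir6236 took 0.684% and 4.56%, and Lars2, the mitochondrial leucyl-tRNA synthetase, took 0.675% and 2.16%. The 3 RNAs together held 19.2% and 34.1% of the counts, and 16.4% and 28.9% in the pair with TGFB1. Their part in the other differences was not tested, nor whether the reads assigned to Mir6236 and Lars2 came from these genes or from ribosomal RNA. With the deposited totals, which include these RNAs, the median gene changed by -0.17 on the log2(RPKM + 1) scale, and 71.6% of genes lay below 0. The 6 other scalings of the libraries raised the log2 ratio of miR-9-LOF to Ctr by 0.17 to 0.29, and genes of low level less than this on the log2(RPKM + 1) scale, except with median centring, which moves all genes alike.

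A gene was counted as past the limit at a log2 change of 0.58, the fold limit used by the study, which is a ratio of 1.49. With the deposited scaling 625 of the 9291 genes fell (6.73%) and 189 rose (2.03%). The balance turned around with any of the other scalings: with totals that leave out Rn45s, Mir6236 and Lars2, 118 genes fell and 529 rose, and 376 rose against 175 that fell after centring on the median. The statements below therefore rest on genes past the limit under all 7 scalings, 114 that fell (1.23% of the genes measured) and 189 that rose (2.03%). Since each other scaling raises the ratio of miR-9-LOF to Ctr, this condition could remove falls but none of the 189 rises. Where a gene is said below to have fallen or risen, it was past the limit under all 7 scalings unless the deposited scaling is named. The counting interval of the ratio lay below 1 for 108 of the 114 and above 1 for 175 of the 189. These are exact 95% binomial intervals, here and for each ratio below. They cover counting error only, because reads were not tied to single molecules, and they leave out variation between cultures.

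**Figure D1:**
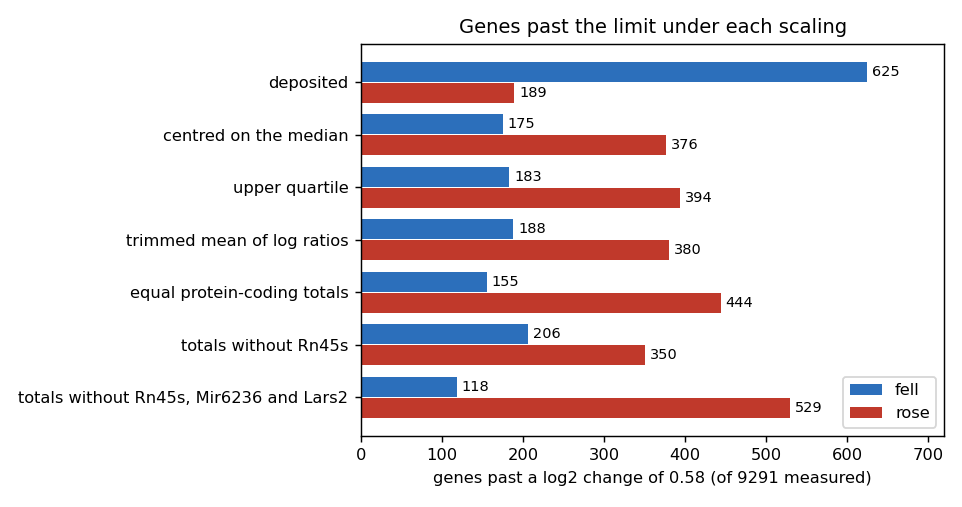
Number of genes, of 9291 measured, past a log2 change of 0.58 between miR-9-LOF and Ctr without TGFB1, under the deposited scaling and 6 others. Blue bars are genes that fell and red bars genes that rose. The deposited scaling is the one with more falls (625) than rises (189).

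Detoxifying and redox enzymes rose as several members of 2 lists. NRF2 (Nfe2l2) is a transcription factor that is held in the cytoplasm by KEAP1 and degraded, and that on oxidative or electrophilic stress enters the nucleus and switches on genes of glutathione synthesis, NADPH supply, haem breakdown and quinone reduction through antioxidant response elements. Of 35 measured NRF2 redox enzymes, 13 rose (37.1%, beside 2.03% of all genes) and 0 fell. The median change of the list was 0.42 beside -0.17 for all genes. In the pair with TGFB1, 10 of the 13 were also past the limit upwards and 0 lay below 0. Nfe2l2 itself had 18 RPKM in Ctr and 15.7 RPKM after miR-9-LOF (log2 -0.19, between -0.19 and 0.09 over the scalings), and Keap1 had 9.10 and 10.8 RPKM.

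Nqo1, which reduces quinones, had 87 reads in Ctr and 229 reads after miR-9-LOF, or 2.06 and 10.1 RPKM, a ratio of 4.9 (3.81 to 6.35). Hmox1 (chr8:75093618-75100593), which breaks down haem, was among the 15 leading rises with 36.7 and 126 RPKM, a ratio of 3.43 (3.22 to 3.65). Blvrb, which acts on biliverdin in the same pathway, had 6.25 and 18.4 RPKM. The haem transporter Slc48a1 rose as well, from 29.3 to 57.6 RPKM, so that 3 genes of haem handling were higher in the miR-9-LOF library. The ferritin subunits, which store the freed iron, did not reach the limit with the deposited scaling: Ftl1 had 242 and 347 RPKM (log2 0.52) and Fth1 had 248 and 332 RPKM (log2 0.42).

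Glutathione and its supply showed the same direction in several enzymes. Gclm, the modifier subunit of the enzyme that starts glutathione synthesis, had 6.91 RPKM in Ctr and 13.9 RPKM after miR-9-LOF (log2 0.91), and the catalytic subunit Gclc had 2.82 and 4.74 RPKM (log2 0.59, just past the limit). Gsr, which recycles oxidised glutathione, had 8.09 and 14.7 RPKM. Pgd, an enzyme of the pentose phosphate pathway that delivers NADPH, had 18 and 43.1 RPKM, a ratio of 2.39 (2.20 to 2.59). Srxn1, which repairs peroxiredoxins, had 6.75 and 16.6 RPKM, and Txnrd1, the thioredoxin reductase of the cytosol, had 28.6 and 45.1 RPKM. Sqstm1, an autophagy receptor that also binds KEAP1, was the most abundant riser of the list, with 141 and 286 RPKM and a ratio of 2.03 (1.97 to 2.09). With TGFB1 Gsr moved less, with 8.87 RPKM under control antagomiR and 10.7 RPKM after miR-9-LOF (log2 0.24).

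The glutathione S-transferases, which couple glutathione to electrophiles, held the protein-coding gene with the largest rise on the log2(RPKM + 1) scale, among those of 5 RPKM or more outside the interferon, contractile and matrix lists. Gsta4 (chr9:78191966-78209349), which acts on lipid peroxidation products, had 82 reads in Ctr and 1050 reads after miR-9-LOF, or 3.15 and 75.2 RPKM, a ratio of 23.8 (19 to 30.2). It had 2.03 and 38.6 RPKM in the pair with TGFB1. Its neighbours on chromosome 9 were nearly silent in Ctr: Gsta1 had 1 and 48 reads and Gsta2 had 1 and 50 reads (log2 2.21 and 2.27), and since these near-identical genes share reads, they cannot be told apart. Of the 16 measured transferases, 6 rose (37.5%, beside 2.03% of all genes) and 0 fell, with a list median of 0.29. Gsta1 and Gsta2, counted among the 6, passed the level filter only through the miR-9-LOF library, so they could not have fallen. Gstp1 had 20.0 and 36.0 RPKM and Gstm1 had 5.45 and 9.84 RPKM, both under a ratio of 2. Aldh3a1, an aldehyde dehydrogenase listed with the targets of the aryl hydrocarbon receptor, went from 4 to 55 reads, a ratio of 25.6 (9.45 to 97.3). It too passed the filter only through miR-9-LOF, and with TGFB1 it had 6 and 21 reads (log2 0.53).

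Metallothioneins, which bind zinc and other metals, were not among the risers: Mt1 had 83.7 and 100.3 RPKM and Mt2 had 26.5 and 37.7 RPKM (log2 0.26 and 0.50), and 0 of 15 genes of metallothioneins and zinc transport were past the limit in either direction with the deposited scaling. In the pair with TGFB1, 2 of these 15 genes were past it upwards. The heat shock chaperones, with 4 of 34 fallen (11.8%, beside 6.73% of all genes) and 0 risen with the deposited scaling, had a median of -0.28. The ATF4 genes of amino acid stress had a median of 0.23, but 2 of 26 rose (7.69%, beside 2.03% of all genes). These were Trib3, a pseudokinase, with 9.02 and 17 RPKM, and Stc2, a secreted glycoprotein, with 1.39 and 2.66 RPKM. Atf4 had 70.2 and 64.3 RPKM. These stress lists held fewer risers than the NRF2 list.

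Promoter sequences of NRF2 list members are shown because 13 of them rose. The letters TGACNNNGC, the core of the antioxidant response element, were searched on both strands of the RefSeq promoter windows of build GRCm38.p6, from 250 bases before to 50 bases after each gene start. A window was found for 29 of the 35 list members, and 11 of these 29 genes (37.9%) held the letters, beside 1194 of 7045 protein-coding genes measured (16.9%) and 12.4% of all 32851 windows of the table. For the transferases it was 2 of 15 genes (13.3%). Of the 13 risers 9 had a window, and 4 of these held the letters, while Nqo1, Blvrb, Cbr3, Osgin1 and Sqstm1 did not. The other 7 genes with the letters were not past the limit under all scalings. The 4 windows below are those of the risers with a match, which is in capitals (read backwards and complemented where it lies on the other strand). Pgd and Txnrd1 have further windows without the letters. The Pgd match starts 3 bases and the Srxn1 match 28 bases after the annotated start, so both lie within the transcript. For Pgd the window without the letters lies upstream of the one shown, so its match is not in the most upstream promoter window. A match is not evidence of binding, and elements farther away were not looked for.
Gclm, chr3:122245307-122245606, plus strand: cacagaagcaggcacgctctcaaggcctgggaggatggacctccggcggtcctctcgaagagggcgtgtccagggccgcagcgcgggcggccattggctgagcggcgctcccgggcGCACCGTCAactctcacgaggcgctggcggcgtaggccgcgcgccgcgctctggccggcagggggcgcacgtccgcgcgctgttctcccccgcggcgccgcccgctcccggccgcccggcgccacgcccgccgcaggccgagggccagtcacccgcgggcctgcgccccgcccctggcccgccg
Pgd, chr4:149166033-149166332, minus strand: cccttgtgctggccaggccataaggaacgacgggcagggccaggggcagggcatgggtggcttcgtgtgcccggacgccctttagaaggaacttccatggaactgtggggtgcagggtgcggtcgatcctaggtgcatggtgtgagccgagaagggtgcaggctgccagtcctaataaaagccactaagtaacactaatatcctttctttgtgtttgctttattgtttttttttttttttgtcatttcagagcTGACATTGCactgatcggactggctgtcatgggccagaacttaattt
Srxn1, chr2:152105274-152105573, plus strand: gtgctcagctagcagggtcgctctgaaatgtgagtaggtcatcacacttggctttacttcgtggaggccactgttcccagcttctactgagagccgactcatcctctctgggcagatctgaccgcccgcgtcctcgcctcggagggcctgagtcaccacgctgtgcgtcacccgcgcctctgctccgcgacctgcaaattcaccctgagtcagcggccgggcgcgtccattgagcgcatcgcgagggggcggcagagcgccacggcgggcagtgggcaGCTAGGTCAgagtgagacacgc
Txnrd1, chr10:82858956-82859255, plus strand: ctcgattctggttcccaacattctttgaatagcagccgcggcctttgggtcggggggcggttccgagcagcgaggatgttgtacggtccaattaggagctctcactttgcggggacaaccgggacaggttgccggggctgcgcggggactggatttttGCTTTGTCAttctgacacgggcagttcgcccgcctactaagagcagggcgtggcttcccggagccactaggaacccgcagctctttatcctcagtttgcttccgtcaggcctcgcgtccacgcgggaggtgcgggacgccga

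Proliferins, placental hormones of the prolactin family that are also made by growing mouse fibroblasts, rose in all 4 measured members. Prl2c2 had 124 reads in Ctr and 677 reads after miR-9-LOF, or 5.35 and 54.4 RPKM, a ratio of 10.2 (8.39 to 12.4). Prl2c3 and Prl2c4 had 113 reads each in Ctr and 642 and 641 after miR-9-LOF, and since these copies are near-identical, their reads are largely the same. Prl2c5 had 23 and 128 reads, with the like ratio of 10.4 (6.61 to 16.9). In the pair with TGFB1, Prl2c2 had 2.55 and 33.0 RPKM.

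**Figure D2:**
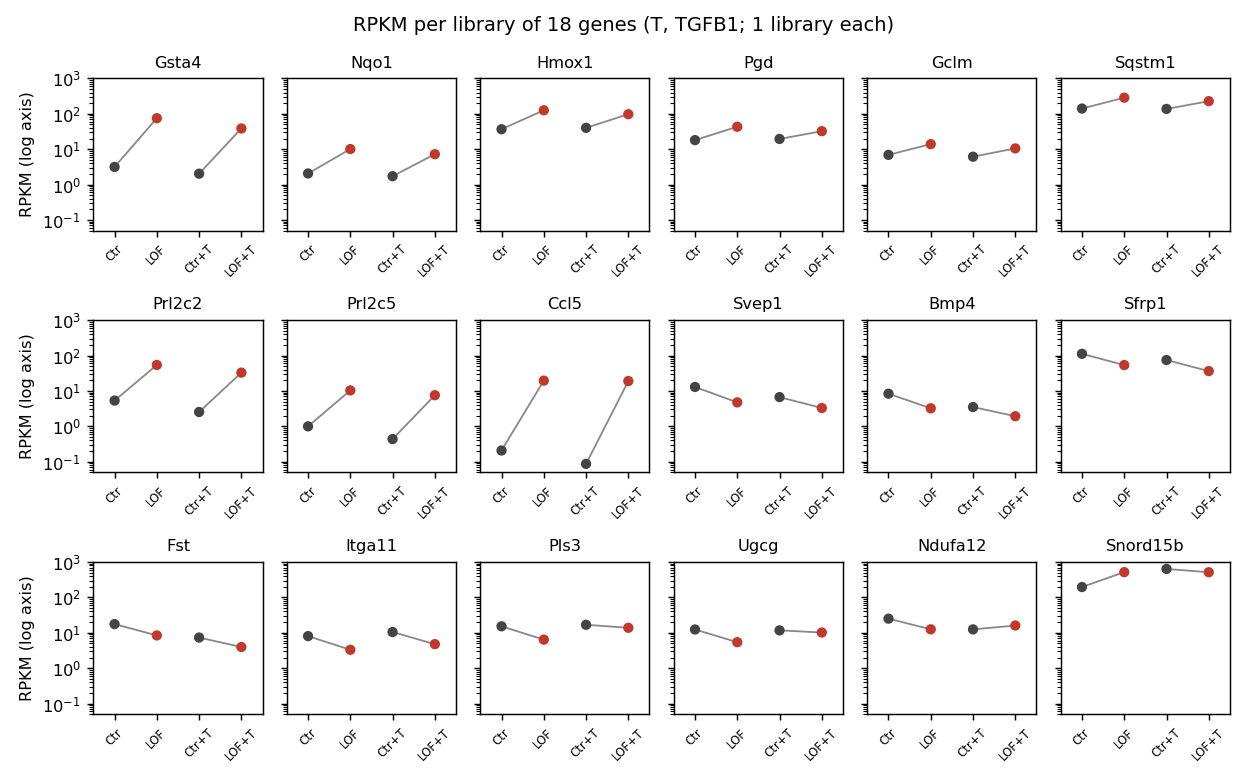
RPKM (log axis) of 18 genes in the 4 libraries, Ctr and miR-9-LOF (LOF) without and with TGFB1 (T). Each point is 1 library and lines join the libraries of a pair. Gsta4 went from 3.15 to 75.2 RPKM without TGFB1 and from 2.03 to 38.6 RPKM with it, whereas Pls3, Ugcg, Ndufa12 and Snord15b moved in the pair without TGFB1 and not in the same way in the other.

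Genes of antigen presentation and nucleic acid sensing also rose. The interferon-induced list, with 24 of 35 risen (68.6%, beside 2.03% of all genes), is not described further. Of 24 measured genes of MHC class I presentation, 12 rose (50%) and 0 fell, with a median of 0.60. Tap1, a subunit of the peptide transporter, had 5.92 RPKM in Ctr and 14.8 RPKM after miR-9-LOF, H2-T23, a nonclassical class I gene, had 10.8 and 22.7 RPKM, and Psmb9, a subunit of the immunoproteasome, had 32 and 46 reads. B2m, the shared light chain of class I molecules, had 435 and 437 RPKM, so the rise did not extend to it under the deposited scaling. The class I heavy chains are close paralogs whose reads may be split between copies. Among 21 sensors and interferon regulatory factors, 5 rose (23.8%). They were led by Irf7 with 3.79 and 18.6 RPKM and the Z-nucleic acid sensor Zbp1 with 9.08 and 29.3 RPKM. Ccl5, a chemokine, went from 3 to 152 reads, a ratio of 94.4 (31.7 to 463), and Cxcl10, another, from 16 to 97 reads. With 0.208 RPKM in Ctr, Ccl5 passed the level filter only through the miR-9-LOF library, so it could not have fallen. Trex1, a DNA exonuclease of the cytosol, had 2.83 and 8.57 RPKM, and the apolipoprotein L genes Apol9a and Apol9b had 13.9 and 38.8 RPKM and 9.88 and 29.1 RPKM. Ly6e, a GPI-anchored surface protein, had 65.0 and 136 RPKM.

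Among falling genes, signalling inhibitors and growth factors were among the named genes. Sfrp1, a secreted protein that binds Wnt ligands, had 13462 reads in Ctr and 3475 reads after miR-9-LOF, or 112 and 54.1 RPKM, a ratio of 0.481 (0.463 to 0.499), and 75.1 and 36.5 RPKM in the pair with TGFB1. Bmp4 (chr14:46383525-46390669), a bone morphogenetic protein, had 8.38 and 3.24 RPKM, a ratio of 0.387 (0.306 to 0.485). Fst, which traps activins, had 17.6 and 8.42 RPKM. In the 32 measured genes of the TGF-beta and BMP pathway 2 fell, Bmp4 and Fst, and 5 fell with the deposited scaling, among them the BMP antagonist Grem1 with 187 and 115 RPKM. In the 21 Wnt genes 1 fell, Sfrp1, and 6 with the deposited scaling. Hes1, the transcriptional repressor downstream of Notch, was the 1 of 15 Notch pathway genes that fell, with 5.91 and 2.91 RPKM. With the deposited scaling 15.6% of the TGF-beta and BMP list and 28.6% of the Wnt list fell, beside 6.73% of all genes. Under all scalings 1.23% of all genes fell, and 1 or 2 genes per list give no result about the list. Cck, the precursor of the peptide cholecystokinin, had 352 and 78 reads, a ratio of 0.413 (0.319 to 0.529).

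The Hippo pathway list, which also holds YAP target genes and other related genes, lay low. The pathway restrains YAP and TAZ, which act through TEAD factors and respond to cell tension and adhesion. The median over 25 measured members was -0.49 with the deposited scaling and -0.26 with totals that leave out the 3 abundant RNAs, beside -0.17 and 0.07 for all genes. With the deposited scaling 10 fell (40%, beside 6.73% of all genes) and 0 rose, and 3 fell under all scalings (beside 1.23% of all genes). Amotl2, an angiomotin, had 86.5 and 45.9 RPKM, Crim1, a transmembrane protein that binds BMPs, had 65.2 and 35.3 RPKM, and Tead1, a DNA-binding partner of YAP, had 8.48 and 4.21 RPKM. The YAP target genes Ccn2, with 180 and 98.1 RPKM, Ankrd1, with 47.2 and 26.3 RPKM, and Ccn1, with 224 and 134 RPKM, were past the limit with the deposited scaling but not under all. In the pair with TGFB1, 4 Hippo genes were past the limit downwards, and the list median was -0.26.

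Genes of adhesion and the cytoskeleton fell beyond the contractile list (11 of 36 fell) and the matrix list (5 of 49 fell), which held 16 of the 114 falling genes. Of all genes 1.23% fell under all scalings and 6.73% with the deposited scaling. Of 10 integrins 2 fell under all scalings: Itga11, a collagen receptor subunit, had 8.05 RPKM in Ctr and 3.31 RPKM after miR-9-LOF, a ratio of 0.411 (0.356 to 0.473), and Itga8 had 6.23 and 2.54 RPKM. Itgb7 went the other way with 77 and 105 reads, a ratio of 2.54 (1.87 to 3.45). Itgb1, the beta subunit common to many integrins, had 62.1 and 34.4 RPKM, past the limit with the deposited scaling but not under all (log2 between -0.83 and -0.55). Among 20 giant cytoskeletal linkers 8 fell with the deposited scaling, 1 of them under all scalings: Sptbn1, a spectrin, with 147 and 74.3 RPKM. Fat1, a giant protocadherin, had 45.7 and 23.4 RPKM.

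The protein-coding genes that fell most, outside the interferon, contractile and matrix lists, were led by Svep1 (chr4:58042796-58206596), a large secreted adhesion protein, with 4002 and 787 reads, or 13 and 4.76 RPKM, a ratio of 0.366 (0.339 to 0.395). Cemip, which takes part in hyaluronan breakdown, had 105 and 48.4 RPKM, and F2r, the thrombin receptor, had 71.2 and 33.2 RPKM. Akap12, a scaffold for protein kinase A, had 28.2 and 12.8 RPKM, and Prss23, a secreted serine protease, had 45.1 and 22.1 RPKM. Septin4 had 18.6 and 8.60 RPKM and Ehd3, an endocytic ATPase, had 7.83 and 3.35 RPKM. Each of these 7 genes was lower after miR-9-LOF with TGFB1 as well, by -0.48 (F2r) to -0.84 (Svep1). Among the leading 15 that were not past the limit there, Pls3 and Ugcg moved by -0.26 and -0.18. Pls3, an actin-bundling plastin, had 15.3 and 6.4 RPKM without TGFB1 but 16.8 and 13.8 RPKM with it. Ugcg, the ceramide glucosyltransferase, had 12.4 and 5.42 RPKM without and 11.7 and 10.2 RPKM with TGFB1. Of the 15 leading falls, 10 were past the limit in the pair with TGFB1, and of the 15 leading rises, 15. These counts use the deposited scaling, the one with the most falls there (136 of 9291 genes). The rises include Lars2, whose reads were not told apart from ribosomal RNA, and proliferin copies with largely the same reads. They are therefore not 15 separate observations. Leading rises with under 5 RPKM in Ctr, such as Ccl5 and Gsta4, reached the level for leading genes only through the miR-9-LOF library.

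Several lists of core cell functions had falls that depended on the scaling. Of all genes 6.73% fell with the deposited scaling and 1.23% under all scalings. The cohesin, condensin and SMC proteins, which fold and hold chromosomes, had 8 of 22 (36.4%) past the limit downwards with the deposited scaling. Under all scalings it was 0, and the deposited median was -0.46. Smc3, a cohesin subunit, had 10.1 and 5.41 RPKM. For mitosis genes it was 7 of 45 (15.6%) with the deposited scaling and 0 under all, with Mki67 at 19.9 and 12 RPKM. For SR proteins and hnRNPs, which direct splicing, it was 6 of 36 (16.7%) and 0. ER chaperones had 7 of 34 (20.6%) and 0, led by Hsp90b1 with 323 and 185 RPKM. Genes of cholesterol and fatty acid synthesis had 8 of 36 (22.2%) and 0. With totals that leave out the 3 abundant RNAs these 5 medians were -0.23, -0.08, -0.16, -0.10 and -0.12, beside 0.07 for all genes. In the pair with TGFB1 the cohesin list had a median of -0.02 and the ER chaperones -0.26, beside -0.08 for all genes. Glycolysis, DNA replication, the tricarboxylic acid cycle, NF-kB and the circadian clock had 0 genes past the limit in either direction with the deposited scaling. Among cytosolic ribosomal proteins 3 of 83 fell (3.61%, under the share of all genes) and 0 rose with the deposited scaling, and the median was -0.08.

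**Figure D3:**
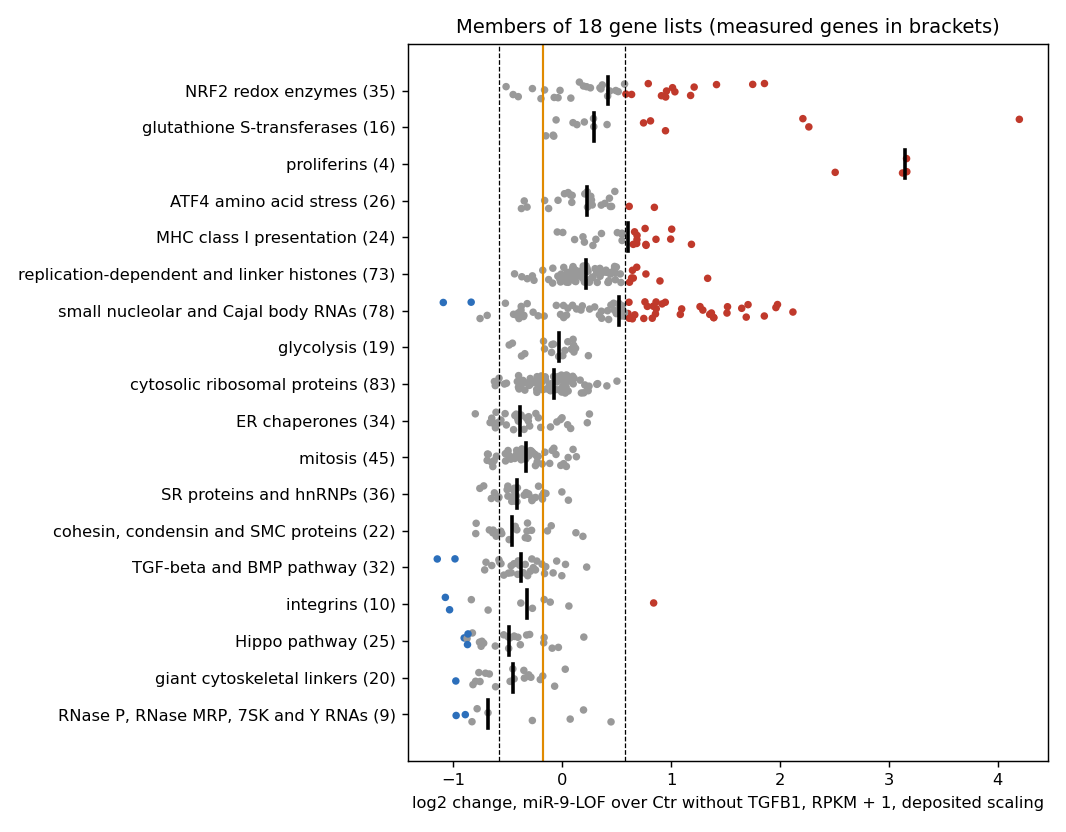
Log2 change (RPKM + 1, deposited scaling) between miR-9-LOF and Ctr without TGFB1 for the members of 18 gene lists. Each point is a gene, red if it rose and blue if it fell under all scalings, black bars are list medians, dashed lines the limit of 0.58 and the orange line the median of all genes, -0.17. The lists with risers at the top reach 4.20 (Gsta4), and the Hippo list has its median at -0.49.

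Histone genes, whose replication-dependent messages lack a poly(A) tail, and small nucleolar RNAs, which direct chemical marking of ribosomal RNA, lay on the upper side. Of 73 measured histones 8 rose and 0 fell, and the median was 0.22. H4c4 had 1482 reads in Ctr and 1361 reads after miR-9-LOF, or 135 and 232 RPKM, a ratio of 1.71 (1.59 to 1.84), and H4c3 had 22.5 and 42.7 RPKM. In the pair with TGFB1 the list median was 0.00, 6 of the 8 were below 0 and 0 were past the limit, with H4c4 at 157 and 138 RPKM. Histone copies share sequence, so single copies are uncertain. Of 78 small nucleolar and Cajal body RNAs, 33 rose (42.3%, beside 2.03% of all genes) and 2 fell, with a median of 0.53. The most deeply counted, Snord15b, had 776 and 1098 reads, or 197 and 518 RPKM, but 638 and 514 RPKM with TGFB1. Snord32a had 99 and 154 reads and Scarna13 had 261 and 367 reads. Of the 33 risers 13 had under 30 reads over both libraries, 23 had a counting interval above 1, and 18 were past the limit upwards with TGFB1. Among 53 microRNA precursors, of like length, 11 rose (20.8%) and 4 fell, beside 2.03% and 1.23% of all genes.

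Some other short non-coding RNAs were lower. The gene of the RNA subunit of RNase P, Rpph1, had 862 and 486 RPKM and the related Rprl2 and Rprl3 had 338 and 172 RPKM and 795 and 429 RPKM, of which Rprl2 and Rprl3 fell under all scalings. Rmrp, the RNA of RNase MRP, had 521 and 713 RPKM (log2 0.45). Malat1, an abundant nuclear long non-coding RNA, had 312 and 188 RPKM without TGFB1 and 268 and 269.8 RPKM with it. B830017H08Rik, another long non-coding RNA, rose from 27.0 to 49.1 RPKM. Lncpint, a long non-coding RNA linked to p53, rose from 46 to 85 reads, a ratio of 3.44 (2.38 to 5.04). Since the counting used reads of both strands, reads of overlapping or antisense genes cannot be told apart.

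The seed of miR-9-5p pairs with the letters ACCAAAG in a message. These were searched on the sense strand of the longest 3' untranslated region that GENCODE M21 gives for a symbol, and 1130 of 8449 protein-coding genes measured (13.4%) held them. The median change was -0.23 for genes with a match and -0.17 for those without, and the genes with a match had longer transcripts, with a median of 3882.5 nucleotides beside 2616. Within 10 equal groups of genes by transcript length, the median of the genes with a match was higher in 5 groups and lower in 5, by between -0.05 and 0.07. Of genes with a match 1.24% fell and 0.885% rose under all scalings, beside 1.11% and 1.5% of those without. No upward shift of the messages with a seed match was thus visible between these libraries.

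Of 18 measured genes listed as miR-9-5p targets in other cells, 12 held the letters. Within the list 0 rose, 1 fell under all scalings (Hes1) and 2 fell with the deposited scaling (11.1%, beside 6.73% of all genes). The median was -0.26. Map1b, a microtubule-associated protein, had 5.04 RPKM in Ctr and 2.81 RPKM after miR-9-LOF. Rest, a repressor of neuronal genes, had 8.11 and 5.52 RPKM, the forkhead factor Foxo3 had 6.64 and 6.36 RPKM and the deacetylase Sirt1 had 1.06 and 1.04 RPKM. Of the 12 genes with the letters, Bcl6 (0.22), Lmna (0.03) and Tgfbr2 (0.03) were higher after miR-9-LOF and 9 lower with the deposited scaling, with a median of -0.19 beside -0.29 for the list members without the letters. Over all genes measured 71.6% lay below 0 and the median was -0.17, so the 12 lay close to all genes. None of Map1b, Rest, Foxo3 and Sirt1 was higher after miR-9-LOF with the deposited scaling, but under other scalings Foxo3 reached 0.20 and Sirt1 0.16. The matches of these 4 of the 12 genes are printed with the letters that pair with the seed in capitals, in GENCODE M21 transcripts of GRCm38.
Map1b: ctgaagcaaatACCAAAGcaggtgggagt
Rest: ttctgaggcaaACCAAAGgtatatttctc
Foxo3: tgataccttgtACCAAAGatagagaagag
Sirt1: agcttatctagACCAAAGaatggtatttc
The genes that the study selected as bound by miR-9 at their promoters moved little: Zdhhc5 had 15 and 12 RPKM, Ncl had 46.0 and 37.0 RPKM, Lzts2 had 23.8 and 23.4 RPKM and Hdac7 had 16.3 and 15.5 RPKM. The study chose these genes with its own data on the same cells in hand.

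Transcript length moved with the change. The median went from -0.05 in the shortest of 10 equal groups of genes (median length 664 nucleotides) to -0.36 in the longest (median 7285 nucleotides), and 145 genes of the longest group fell with the deposited scaling against 2 that rose. With TGFB1 the medians went from 0.01 to -0.13. The median transcript of the 114 falling genes was 2812.5 nucleotides and that of the 189 rising genes 1223, beside 2659 for all genes. The part of transcript length in the long linkers, SMC proteins and histones was not tested. Over 10 equal groups by mean RPKM the medians stayed between -0.20 and -0.12.

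**Figure D4:**
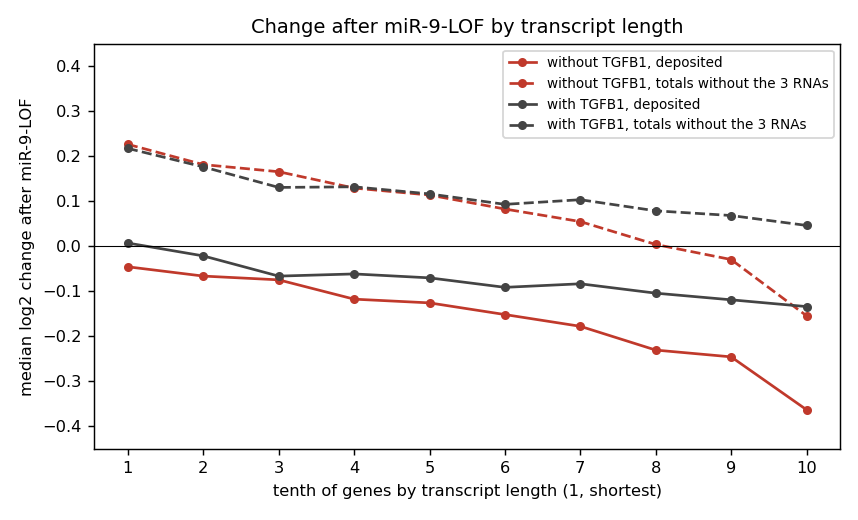
Median log2 change after miR-9-LOF in 10 groups of genes by transcript length, from the shortest (1) to the longest (10), for the pair without TGFB1 (red) and with TGFB1 (grey). Solid lines use the deposited scaling and dashed lines totals that leave out Rn45s, Mir6236 and Lars2. The solid red line goes from -0.05 to -0.36 and the solid grey line from 0.01 to -0.13.

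Isoforms of a gene moved alike. Over 1890 symbols with at least 2 transcripts of 5 RPKM or more, 0 had transcripts that differed from each other by 0.58 or more. The largest difference, 0.45, was that of Ly6c1, whose transcripts had log2 changes between 0.12 and 0.57. Exons shared by isoforms are counted for each of them, which draws such values together.

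The pair of libraries with TGFB1 shared much of the pattern. Of the 189 genes that rose, 113 (59.8%) were past the limit upwards and 0 downwards with TGFB1, beside 2.06% of all 9291 genes that rose there, and the median was 0.69. Of the 114 that fell, 47 (41.2%) were past it downwards and 3 upwards, beside 1.46% of all genes that fell there, with a median of -0.44. With the other scalings of the libraries with TGFB1, between 16 and 33 of the 114 were past it downwards. Of the 511 genes that fell with the deposited scaling but not under all scalings, 34 (6.65%) were past the limit downwards with TGFB1. The pairs had no library in common, but both miR-9-LOF libraries held more Rn45s, Mir6236 and Lars2 than their controls. Across all measured genes Pearson's r between the 2 changes was 0.57 and Spearman's rank correlation 0.37, a description over genes, which are not independent replicates.

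**Figure D5:**
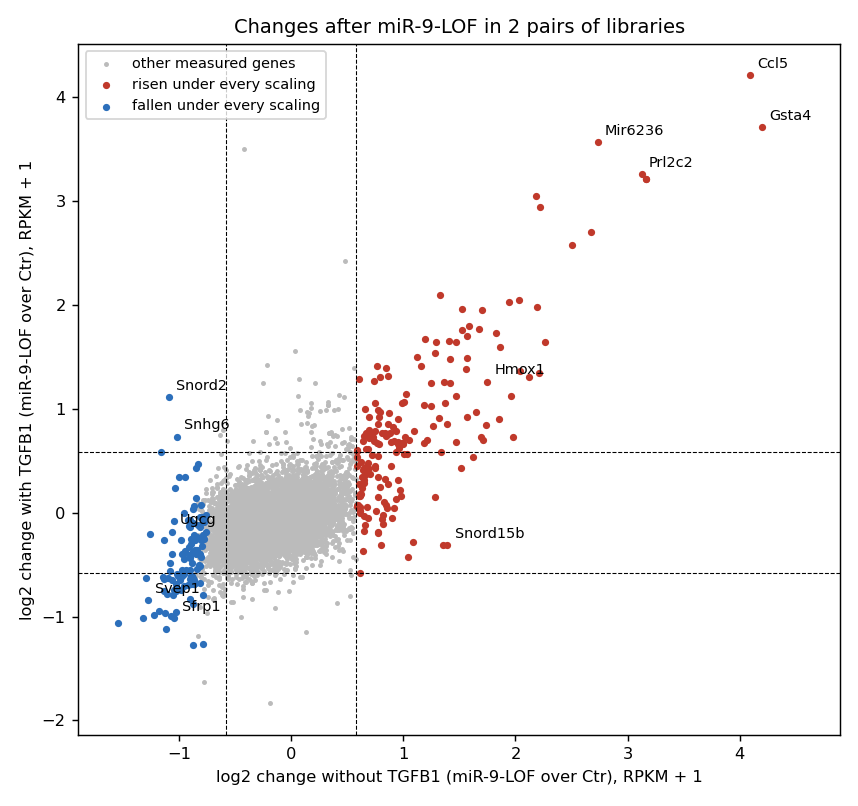
Log2 change after miR-9-LOF (RPKM + 1, deposited scaling) without TGFB1 (x axis) and with TGFB1 (y axis) for 9291 genes. Red genes rose and blue genes fell under all scalings without TGFB1, and dashed lines mark the limit of 0.58. Of the red genes 113 lie above the upper line, and of the blue genes 47 lie below the lower line and 3 above the upper line.

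A pair of nuclear-encoded mitochondrial genes fell without TGFB1 and were higher after miR-9-LOF with it. Ndufa12, an accessory subunit of respiratory complex I, had 701 reads in Ctr and 188 reads after miR-9-LOF, or 25.1 and 12.5 RPKM, a ratio of 0.500 (0.423 to 0.588), and 12.5 and 16 RPKM with TGFB1. Mrpl51, a mitochondrial ribosomal protein, had 4.13 and 1.84 RPKM, and 3.07 and 3.48 RPKM with TGFB1. The list of 89 respiratory chain genes held 2 that fell and 1 that rose under all scalings, beside 1.23% and 2.03% of all genes. Its median of -0.14 lay next to that of all genes.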

How the data were processed

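Total RNA libraries of MLg cells under 4 conditions (1 each) were compared in pairs, miR-9-LOF over Ctr without TGFB1 and, as a second pair, with TGFB1. Groups came from the sample titles. The authors trimmed reads with Trimmomatic (0.36 in the submitters' processing notes), mapped them with Bowtie2 (mm10) and used HOMER to count exonic reads of RefSeq transcripts on both strands. The sources used here give no other versions. Counts were deposited as whole reads for each transcript. RPKM was deposited with 1 added, after the authors had scaled it in edgeR by transcript length and by a total that includes Rn45s, and this 1 was subtracted again. Deposited log2 fold changes are the authors' own comparisons and were not used.

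The table held 25388 transcripts of 12767 symbols, and each symbol was represented by its transcript of highest mean RPKM. Totals (14719887 to 27416665 reads) were worked out from counts, lengths and RPKM. The shallowest library, miR-9-LOF, sets the precision. A mean RPKM of at least 1 was required. Changes are log2(RPKM + 1) differences with a pseudocount of 1, which understates low genes, and the limit was 0.58. Other scalings were median centring, upper quartile, trimmed mean of log ratios, equal protein-coding totals, and totals without Rn45s or without Rn45s, Mir6236 and Lars2. Other settings were a pseudocount of 0.1, no filter, a mean RPKM of 5, a limit of 1, and the longest transcript per symbol. Calculations used Python 3.11.15, numpy 2.4.6, pandas 2.3.3 and scipy 1.17.1, and the functions were tested on simulated data. No test was run.

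The comparison and the 79 gene lists were chosen with earlier results of these data known. Named genes were the 15 protein-coding genes of 5 RPKM or more with the largest change each way among those past the limit under all scalings and outside the interferon, contractile and matrix lists, 3 non-coding RNAs each way of 200 nt or more, up to 4 members per list (the 2 most abundant where none was past the limit), Rn45s, Mir6236, Lars2, miR-9 hosts and the isoforms that differed most. Nfe2l2, Keap1, Srxn1, Gclm, Gclc, Gsr, Txnrd1, Gstp1, Gstm1, Fth1, Atf4, B2m, Ankrd1, Ccn1, Foxo3, Sirt1, Vim, Rmrp, Snord15b and Snord32a were chosen after their values were seen. Of the leading protein-coding genes 1 is not reported here. A planned comparison of promoter G runs was void, since promoter windows covered 73.5% of the falling and 72.6% of the rising genes, below 80%. Coordinates are those of RefSeq on GRCm38.p6, the same build as mm10, which matched 9269 of 9291 genes.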

Additional observations from a re-analysis of the deposited data

Results flagged for a closer look

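3 short non-coding RNAs that fell without TGFB1 lay past the limit upwards with TGFB1, and the difference between the pairs was not tested. Snord2 had 10 reads in Ctr and 2 after miR-9-LOF, and 4 and 9 with TGFB1, so that its log2 change was 2.20 higher with TGFB1. Snhg6, a host of small nucleolar RNAs, had 19 and 2 reads, and 11 and 21 with TGFB1, a difference of 1.76. Mir1902 had 11 and 2 reads, and 4 and 6 with TGFB1, a difference of 1.75. All 3 rest on 21 or fewer reads per library.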

How the results depend on the processing

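With 1 library per condition, leaving out a replicate was not possible, and no paired analysis was possible because each group has 1 library, so that replicate numbers pair nothing. An additive fit over the 4 libraries was not run. The count of genes fallen (625) was 175 after centring on the median, 183 with the upper quartile, 188 with the trimmed mean of log ratios, 155 with equal protein-coding totals, 206 when Rn45s was left out of the totals and 118 when Rn45s, Mir6236 and Lars2 were left out, while the count of genes risen (189) was 376, 394, 380, 444, 350 and 529 in the same order. By construction, these scalings raise the log2 ratio of miR-9-LOF to Ctr by 0.17 to 0.29, with a smaller shift for genes of low level except with median centring. Genes fallen numbered 1305 with a pseudocount of 0.1, 366 at a mean RPKM of 5 or more and 36 at a limit of 1, where 73 genes rose. Genes fallen under every scaling (114) numbered 279, 75 and 6 in these settings, and genes risen under every scaling (189) numbered 73 at a limit of 1. No filter and the longest transcript per symbol kept all of these counts within 1.5 times. Of the 114 fallen genes, 47 also fell with TGFB1 under the deposited scaling, and 31, 31, 20, 30 and 16 when the libraries with TGFB1 were centred on the median, scaled by the upper quartile, by protein-coding totals, without Rn45s, or without the 3 RNAs, an alternative chosen after seeing the data. Of the 189 risen genes between 113 and 134 also rose there. Of 67 gene lists with a median below 0, 35 stayed below 0 under every scaling and 32 moved above 0 under at least 1. Of 358 genes given by the naming rule or added to it, 208 were past the limit, and none of these changed sign under any alternative. For the scalings this was fixed in advance, because their shifts of 0.17 to 0.29 are smaller than the limit. A different pseudocount, level filter or limit cannot change a sign either. Only the use of the longest transcript per symbol could have done so, and the absence of sign changes is therefore little evidence of stability. Depth limits the short non-coding RNAs, and 13 of the 33 small nucleolar and Cajal body RNAs that rose had under 30 reads over both libraries.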
